A study of Mus musculus with 16 samples.

Results

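The genes described here encode 3 classes of protein that put ubiquitin on other proteins or take it off: the ubiquitin-conjugating enzymes (symbols starting with Ube2), the ubiquitin-specific proteases (Usp followed by a digit) and the F-box proteins (Fbxo, Fbxl and Fbxw). Members were selected on measured detection p-values: they were the array probes whose platform gene symbol has one of these beginnings and that were detected, with a p-value under 0.01, on each of the 4 arrays in 1 group or more. This gave 123 member probes of 10794 probes that passed the same detection rule, out of 211 probes with such a symbol and 25697 probes on the arrays. They comprised 36 Ube2 probes of 22 genes, 41 Usp probes of 30 genes and 46 F-box probes of 35 genes, 87 genes in all. The symbols caught a few proteins outside the 3 classes' usual activity: Usp6nl is a Rab GTPase-activating protein, and Usp39 is a splicing factor that lacks protease activity.

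Ubiquitin is passed from an activating enzyme (E1) to a conjugating enzyme (E2), and a ligase (E3) then brings the loaded E2 to the protein to be marked. F-box proteins are the interchangeable substrate receptors of the SCF ligases, in which a cullin scaffold, the adaptor Skp1 and a RING protein complete the complex. The 3 F-box families are named for the part that holds the substrate: WD40 repeats in Fbxw, leucine-rich repeats in Fbxl and other domains in Fbxo. Ubiquitin-specific proteases cut ubiquitin from substrates and edit chains, and are the largest family of deubiquitinating enzymes. In neurons and neuroblastoma cells this machinery controls the turnover of cell-cycle regulators, surface receptors and misfolded proteins.

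The study used Neuro 2a, a mouse neuroblastoma cell line whose labels give the strain C57BL/6J, either left untreated or exposed to hydrogen peroxide, and asked which RNAs carry abasic sites. RNA was derivatised with the aldehyde reactive probe (ARP), a biotinylated reagent that binds abasic sites, and streptavidin beads were used to pull down the labelled RNA. Illumina bead arrays measured 4 groups of 4 arrays each: unselected RNA of untreated cells (Basal-total), captured RNA of untreated cells (Basal-ARP), and the unselected (Ox-total) and captured RNA (Ox-ARP) of peroxide-treated cells. The sources used here give neither the dose of peroxide nor its time, no sample captured without ARP was analysed here, and nothing in the labels says that the replicates came from separate cultures, so p-values measure only the spread between these arrays.

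All 16 arrays were used. Their mean raw signal lay between 328 and 533, between 10351 and 11068 probes were detected per array, and 114 to 123 of the 123 members were detected on each. Replicates 1 and 2 of every group were on 1 chip and replicates 3 and 4 on the other, so values are also given within each chip. Each group occupied its own positions on both chips, and these cannot be told apart from the groups. Of the 14 neuroblastoma and neural crest marker genes on the arrays, 10 were detected, including Phox2a, Hand2, Th and Dbh, while Mycn, L1cam, Nefm and Tubb3 were not. Among markers of other cells, Mbp (1 of 4 glial genes), Dcn (1 of 4 fibroblast genes), Krt8 (1 of 3 epithelial genes) and 0 of 2 blood genes were detected. Their part in the results was not tested.

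Levels are log2 normalised intensities, and a difference is a difference of group means on that scale with its standard error, so that a difference of 1 is a 2-fold change. Because the arrays were brought to a common distribution, a captured sample shows a probe's level relative to the other captured RNAs and not the amount captured. A probe was called changed at a limma p-value under 0.05 after Benjamini-Hochberg adjustment over all 10794 probes, with n = 4 arrays in each group throughout. Since members had to be detected to enter, counts and medians over them describe the probes that passed and do not stand for all 211.

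Most members were expressed in every group. Of the 123 probes, 108 were detected on all 4 arrays of all 4 groups, 5 in 3 groups, 6 in 2 groups and 4 in 1 group. Fully detected were 121 members in Basal-ARP, 116 in Basal-total and 113 in either peroxide group. Usp48, a deubiquitinase that acts in the nucleus, entered with the highest qualifying detection p-value, 0.00877, and it did so only through Basal-ARP. Next inside was Ube2l6, the E2 for the ubiquitin-like protein ISG15, at 0.00752. Just outside were Usp18, which removes ISG15, at 0.01 after rounding, and Fbxo32, the muscle atrophy receptor atrogin-1, at 0.0125. Over the 4 groups the class medians ran from 8.12 to 8.2 for Ube2, from 7.49 to 7.73 for Usp and from 7.77 to 7.88 for the F-box probes.

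Before capture, peroxide changed no member past the test. In Ox-total against Basal-total, 0 of 123 members were called, beside 0.241% of all probes tested (0.0463% higher and 0.195% lower). The smallest adjusted p in limma was 0.2, for Usp38. A Usp38 probe that entered through the untreated groups and was detected on only 1 Ox-total array is described below. At an unadjusted p under 0.05 there were 13 members, 2 higher and 11 lower, against a background of 10.1% of all probes. The 4 arrays of each group did not overlap for 9 members (background 6.24%). The median differences were -0.02 for Ube2, -0.02 for Usp and 0.01 for F-box probes, against 0.01 for all probes. Member differences ran from -0.47 to 0.29, with a median standard error of 0.12.

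Capture from untreated cells raised more members than it lowered. In Basal-ARP against Basal-total 28 members were called, beside 31.9% of all probes. Of these, 23 members were higher (18.7%, where 16.7% of all probes were called higher) and 5 were lower (4.07%, where 15.2% of all probes were called lower). By class, 8 Ube2 probes rose and 1 fell, 8 Usp probes rose and 0 fell, and 7 F-box probes rose and 4 fell. The medians were 0.1 for Ube2 and 0.08 for Usp, 0 for F-box and 0.03 for all probes. At an unadjusted p under 0.05 there were 44 members (background 42.9%), among them 3 lower Usp probes. The arrays of the 2 groups did not overlap for 28 members (background 27.7%). Under median scaling 13 members were called in place of 28, 10 higher and 3 lower, while 23.8% of all probes were called.

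Capture from peroxide-treated cells gave calls in both directions. In Ox-ARP against Ox-total 30 members were called, beside 27.0% of all probes. Of these, 13 members were higher (10.6%, background 13.6%) and 17 were lower (13.8%, background 13.4%). The Ube2 probes split into 5 higher and 8 lower, the Usp probes into 7 and 5, and the F-box probes into 1 and 4. Median scaling gave 15 higher and 13 lower, and the authors' processed values 17 and 14. All probes moved the same way, to 1459 higher and 1086 lower under median scaling and 2200 and 1166 with the authors' values. At an unadjusted p under 0.05 there were 42 members (background 38.0%), and the groups did not overlap for 32 (background 28.5%). The medians were 0.04, 0.05 and -0.04 in the order of the classes, and 0.03 for all probes.

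Set against each other, the captured samples differed mostly downward with peroxide. In Ox-ARP against Basal-ARP 33 members were called, beside 29.2% of all probes. Of these, 7 members were higher (5.69%, background 13.8%) and 26 were lower (21.1%, background 15.4%). At an unadjusted p under 0.05 there were 42 members (background 40.7%), and the groups did not overlap for 29 (background 27.3%). Ube2 probes gave 1 higher and 12 lower, Usp 3 and 8, F-box 3 and 6. This split depends on the scaling: median scaling moved the median of all probes from 0.02 to 0.13 and gave 10 higher and 14 lower members, when 2339 probes in all were called higher and 812 lower. Under it the class medians were 0.03 for Ube2, 0.02 for Usp and 0.12 for F-box, which is -0.1, -0.11 and -0.01 relative to the shift of all probes, against -0.08, -0.13 and -0.02 relative to the 0.02 of the main scaling. This comparison shares its arrays with both capture comparisons, so its values are given beside theirs and not as further evidence.

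**Figure D1:**
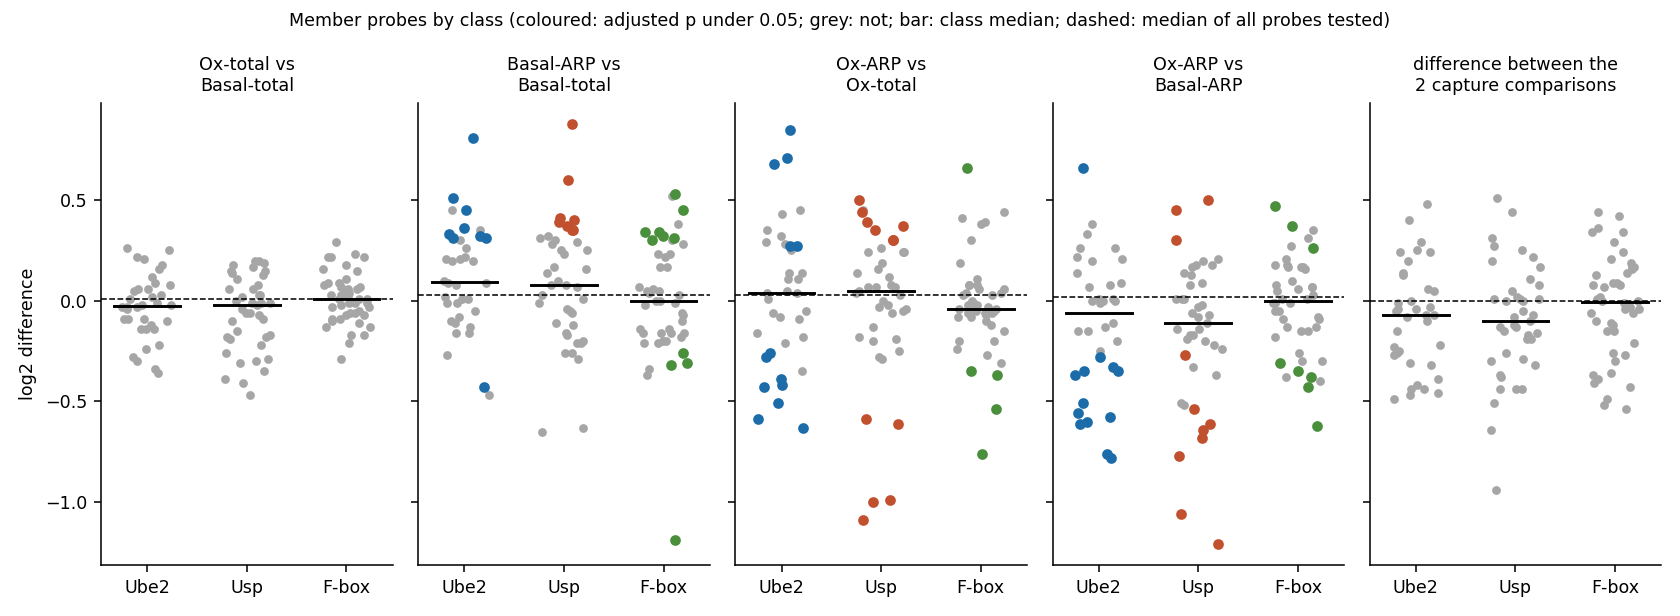
Log2 difference (y axis) of each member probe in the 3 classes (x axis) for the 5 comparisons, coloured where the adjusted p was under 0.05. No point is coloured in the first and last panels, and in the Ox-ARP against Basal-ARP panel 26 of the 33 called probes lie below 0. Among these, Fbxw5 is drawn grey because its adjusted p rounds to 0.05.

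The direct test of whether capture acted differently with peroxide, the Ox-ARP against Ox-total difference minus the Basal-ARP against Basal-total difference, called 0 of 123 members, where 2.48% of all probes were called (0.760% higher and 1.72% lower). The smallest adjusted p was 0.061 (limma), for the E2 gene Ube2g1, with a difference of -0.49 ± 0.13. At an unadjusted p under 0.05 there were 25 members, 3 higher and 22 lower (background 18.9%). The 0 depends on the fit: 4 members were called with the chip as a block (Fbxo8 at -0.49, Ube2g1 at -0.49, Usp10 at -0.51 and Usp12 at 0.51, with adjusted p of 0.047, 0.034, 0.047 and 0.042), and 9 with array weights. Calls over all probes rose as well in these fits, to 7.65% and 7.5%. Usp10 and Usp12 were named after their values were seen. For the members named below, the values of the capture comparisons are set side by side and their difference did not pass the test in the fit without a block. All called members had the same sign on both chips: 28 of 28, 30 of 30 and 33 of 33 in the 3 comparisons with calls. Over all probes it was 3440 of 3441, 2914 of 2914 and 3151 of 3151. A call averages over both chips, so this agreement is nearly fixed in advance and adds no evidence. Fitted within 1 chip, with 2 arrays a group, the calls were 11 and 8, 16 and 6, and 12 and 11. The shares of all probes called within the chips were 16% and 11.7%, 14.4% and 6.53%, and 10.8% and 10.2%. Of the 91 calls over the 3 comparisons, 53 were kept in all 8 fits that left out 1 of the arrays compared, 6 were lost in 1 of them and 32 in more than 1. How many calls over all probes were so kept was not counted.

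**Figure D2:**
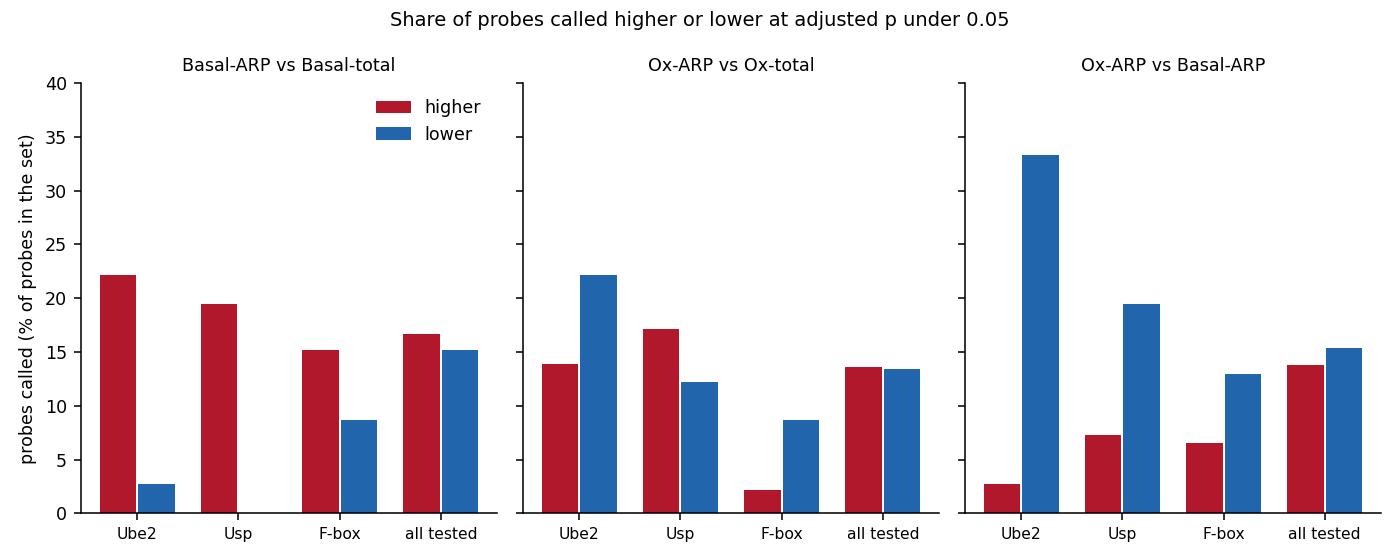
Percentage of probes called higher (red) or lower (blue) in each class and over all 10794 probes tested, for the 3 comparisons with called members. Ube2 has 33.3% lower in Ox-ARP against Basal-ARP, and Usp has 0% lower in Basal-ARP against Basal-total.

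The conjugating enzymes had the largest share of lower probes among the 3 classes in Ox-ARP against Ox-total (22.2%) and against Basal-ARP (33.3%). Among the 36 Ube2 probes, 8 shared 1 pattern: not called on capture from untreated cells, lower on capture from treated cells, and lower in Ox-ARP than in Basal-ARP. That is 22.2% of the Ube2 probes, where 3.28% of all probes tested showed the pattern. The pattern was picked out after all combinations of calls had been counted, so the larger share is a description. Its comparisons with calls share the Ox-ARP arrays, and the direct test called none of these probes in the fit without a block. Under median scaling both Ube2f probes and the Ube2g1 probe lost their call against Basal-ARP. The 8 probes came from 6 genes: Ube2e1, Ube2e3 (2 probes), Ube2f (2 probes), Ube2g1, Ube2j2 and Ube2z (1 of its 2 probes). Probes of 1 gene report on the same transcripts, so these are not 8 independent cases. The probes of Ube2e1 and Ube2g1 and the second of Ube2f were singled out after their values were seen.

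Ube2e3 and Ube2e1 are class III E2s, which carry an extension before the catalytic core. The Ube2e3 probe ILMN_2512043 read 9.08, 9.31, 9.21 and 9.32 on the Basal-total arrays and 9.32, 9.1, 9.18 and 8.98 on the Ox-total arrays. After capture it read 9.17, 9.2, 8.73 and 9.18 in untreated cells and 8.71, 8.39, 8.52 and 8.43 in treated cells. The Ox-ARP arrays lay below all others, next to a single low Basal-ARP array. The difference was -0.63 ± 0.12 against Ox-total (limma adjusted p 0.00069) and -0.56 ± 0.12 against Basal-ARP (adjusted p 0.0019), and -0.16 ± 0.12 on capture from untreated cells (adjusted p 0.3). The other Ube2e3 probe, ILMN_2512042, gave -0.51 ± 0.12, -0.61 ± 0.12 and -0.13 ± 0.12 for the same 3 comparisons. Ube2e1 gave -0.42 ± 0.1 (adjusted p 0.0061) and -0.58 ± 0.1 (adjusted p 0.00072), with 0.01 ± 0.1 on capture from untreated cells.

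Ube2j2 and Ube2j1 are the membrane-anchored E2s of the endoplasmic reticulum, where misfolded proteins are sent for degradation. Ube2j2 read 7.12, 7.27, 7.06 and 7.48 in Basal-total, 6.99, 7.02, 6.87 and 6.87 in Ox-total, 7.47, 7.32, 7.08 and 7.38 in Basal-ARP, and 6.79, 6.42, 6.45 and 6.54 in Ox-ARP. Every Ox-ARP array was below every other array. The further Ube2j2 probes on the arrays did not pass the detection rule. Ube2j2 fell by 0.76 ± 0.11 in Ox-ARP against Basal-ARP (adjusted p 0.00015; -0.79 on chip 1 and -0.73 on chip 2) and by 0.39 ± 0.11 against Ox-total (adjusted p 0.017, and 0.058 without Ox-ARP replicate 2, where the difference was -0.34).

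Ube2j1 read 5.99, 5.84, 6.3 and 5.99 in Basal-total and 5.91, 6.01, 6 and 6.17 in Ox-total. In the captured samples it read 6.67, 6.81, 6.96 and 6.94 (Basal-ARP) and 6.18, 6.97, 6.82 and 6.95 (Ox-ARP). The captured arrays were higher than the unselected ones in both states, with 1 Ox-ARP array close to the Ox-total range. Ube2j1 rose by 0.81 ± 0.15 on capture from untreated cells (adjusted p 0.00059; 0.82 and 0.8 on the 2 chips) and by 0.71 ± 0.15 from treated cells (adjusted p 0.002). Between the captured groups the difference was -0.11 ± 0.15 (adjusted p 0.61).

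Ube2f and Ube2g1 complete the pattern. Ube2f, an E2 for the ubiquitin-like protein NEDD8 that activates cullins, fell by 0.43 ± 0.1 on capture from treated cells (ILMN_2590350, adjusted p 0.0037) and by 0.37 ± 0.1 against Basal-ARP (adjusted p 0.0089, 0.095 under median scaling). The other 2 of its 4 probes were not called. Probe ILMN_2590349 gave -0.28 ± 0.09 (adjusted p 0.031, kept in 2 of 8 fits that left out 1 array, with up to 0.1 in the others) and -0.33 ± 0.09 (0.051 without Ox-ARP replicate 2, at -0.28). Ube2g1, called at 1 of its 3 probes, gave -0.26 ± 0.1 on capture from treated cells (adjusted p 0.048, kept in 1 of 8 such fits, with up to 0.16 in the others) and -0.51 ± 0.1 against Basal-ARP (adjusted p 0.00089, kept in 8 of 8). Both Ube2g1 calls were lost under median scaling, at -0.18 (adjusted p 0.4) and -0.36 (adjusted p 0.078), as were both of ILMN_2590349, at -0.21 (0.14) and -0.24 (0.08).

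Ube2z, an E2 charged by the alternative E1 Uba6, was the 1 gene whose probes were called in opposite directions in 1 comparison. Probe ILMN_2774701 read 6.2, 6.26, 6.67 and 6.69 in Basal-total, 6.19, 6.23, 6.46 and 6.39 in Ox-total, 7.03, 6.88, 6.69 and 7 in Basal-ARP, and 6.98, 7.23, 7.05 and 7.4 in Ox-ARP. Probe ILMN_1225931 read 7.71, 7.7, 7.61 and 7.69, then 7.53, 7.24, 7.4 and 7.4, then 7.25, 7.49, 7.54 and 7.33, and finally 7.04, 6.61, 6.96 and 6.6 in the same order of groups. The Ox-ARP arrays of the first probe overlapped those of Basal-ARP and lay above both unselected groups, and those of the second lay below all others. The differences on capture from treated cells were 0.85 ± 0.13 (adjusted p 0.00014) and -0.59 ± 0.11 (adjusted p 0.0007). From untreated cells they were 0.45 ± 0.13 (adjusted p 0.014) and -0.27 ± 0.11 (adjusted p 0.063). The first of these was 0.73 on chip 1 and 0.17 on chip 2, and its adjusted p was 0.053 without Basal-total replicate 1, at 0.36, and 0.058 under median scaling. Which transcript parts the probes read is not given in the sources used here, so the gene as a whole has no single direction.

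A second set of E2s rose on capture from untreated cells and was lower in Ox-ARP than in Basal-ARP. Ube2d3 and Ube2d2a belong to the UBE2D family, which works with many E3s. Ube2d3 read 8.14, 8.02, 8.43 and 7.96 in Basal-total and 8.52, 8.71, 8.84 and 8.53 in Basal-ARP, against 8, 7.84, 8.22 and 8.14 in Ox-total and 8.35, 8.33, 8.24 and 8.28 in Ox-ARP. The groups did not overlap in either capture comparison. Ube2d3 rose by 0.51 ± 0.11 from untreated cells (adjusted p 0.0025), was 0.25 ± 0.11 higher without passing the test from treated cells (adjusted p 0.11), and fell by 0.35 ± 0.11 between the captured groups (adjusted p 0.026, kept in 4 of 8 fits that left out 1 array, with up to 0.08 in the others). This last call was lost under median scaling (-0.21, adjusted p 0.38) and with the authors' processed values (-0.36, adjusted p 0.074). Of the 2 Ube2d2a probes, ILMN_1215117 followed the same course, with 0.36 ± 0.08, 0.14 ± 0.08 and -0.35 ± 0.08, and lost its calls on capture from untreated cells and between the captured groups under median scaling (adjusted p 0.059 and 0.24). The brighter one, ILMN_1224561, did not: it gave -0.01 ± 0.11, 0.28 ± 0.11 and 0.26 ± 0.11, with none called.

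Ube2k, an E2 that builds lysine-48-linked chains, had 3 probes, of which 2 rose on capture from untreated cells, by 0.33 ± 0.11 and 0.31 ± 0.09, and 1 did not pass (0.45 ± 0.21, adjusted p 0.11). The 2 calls were kept in 4 and 6 of 8 fits that left out 1 array, with adjusted p up to 0.097 and 0.063, and neither was kept under median scaling (adjusted p 0.25 and 0.22). Ube2n, which builds lysine-63-linked chains with a Ube2v partner, rose in both capture comparisons at probe ILMN_1227863, by 0.31 ± 0.09 (adjusted p 0.011) and 0.27 ± 0.09 (adjusted p 0.028, kept in 4 of 8 such fits, with up to 0.097 in the others). Its other probe gave -0.16 ± 0.23 and 0.04 ± 0.23. Ube2b, a RAD6 enzyme of DNA damage tolerance, rose by 0.32 ± 0.09 and 0.27 ± 0.09, the second call being kept in 4 of 8 such fits, with up to 0.091 in the others, and the first lost under median scaling (0.27, adjusted p 0.055).

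The E2s of the anaphase-promoting complex had calls in opposite directions, in different comparisons. Ube2c, which starts chains on mitotic substrates, read 6.13, 5.79, 6.45 and 6.56 in Basal-total, 6.03, 6.48, 6.45 and 6.69 in Ox-total, 6.34, 6.33, 6.15 and 6.93 in Basal-ARP, and 7.19, 6.99, 6.84 and 7.36 in Ox-ARP. It was the 1 Ube2 probe called higher in Ox-ARP against Basal-ARP, by 0.66 ± 0.19 (adjusted p 0.015, and 0.054 at 0.57 without Ox-ARP replicate 4), with 1 Basal-ARP array reaching into the Ox-ARP range. It rose by 0.68 ± 0.19 against Ox-total (adjusted p 0.012). Ube2s, which extends those chains, was the 1 Ube2 probe lower on capture from untreated cells, with -0.43 ± 0.14 (adjusted p 0.03, but 0.053 and 0.11 without Basal-total replicate 3 or 4, 0.092 without Basal-ARP replicate 2, 0.052 under median scaling and 0.065 with the authors' values), and gave -0.18 ± 0.14 from treated cells. Ube2t, the E2 of the Fanconi anaemia pathway, gave -0.47 ± 0.18 (adjusted p 0.056) and -0.35 ± 0.18 (adjusted p 0.17). Ube2q2 fell by 0.78 ± 0.18 at 1 of its 3 probes in Ox-ARP against Basal-ARP (adjusted p 0.0041).

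**Figure D3:**
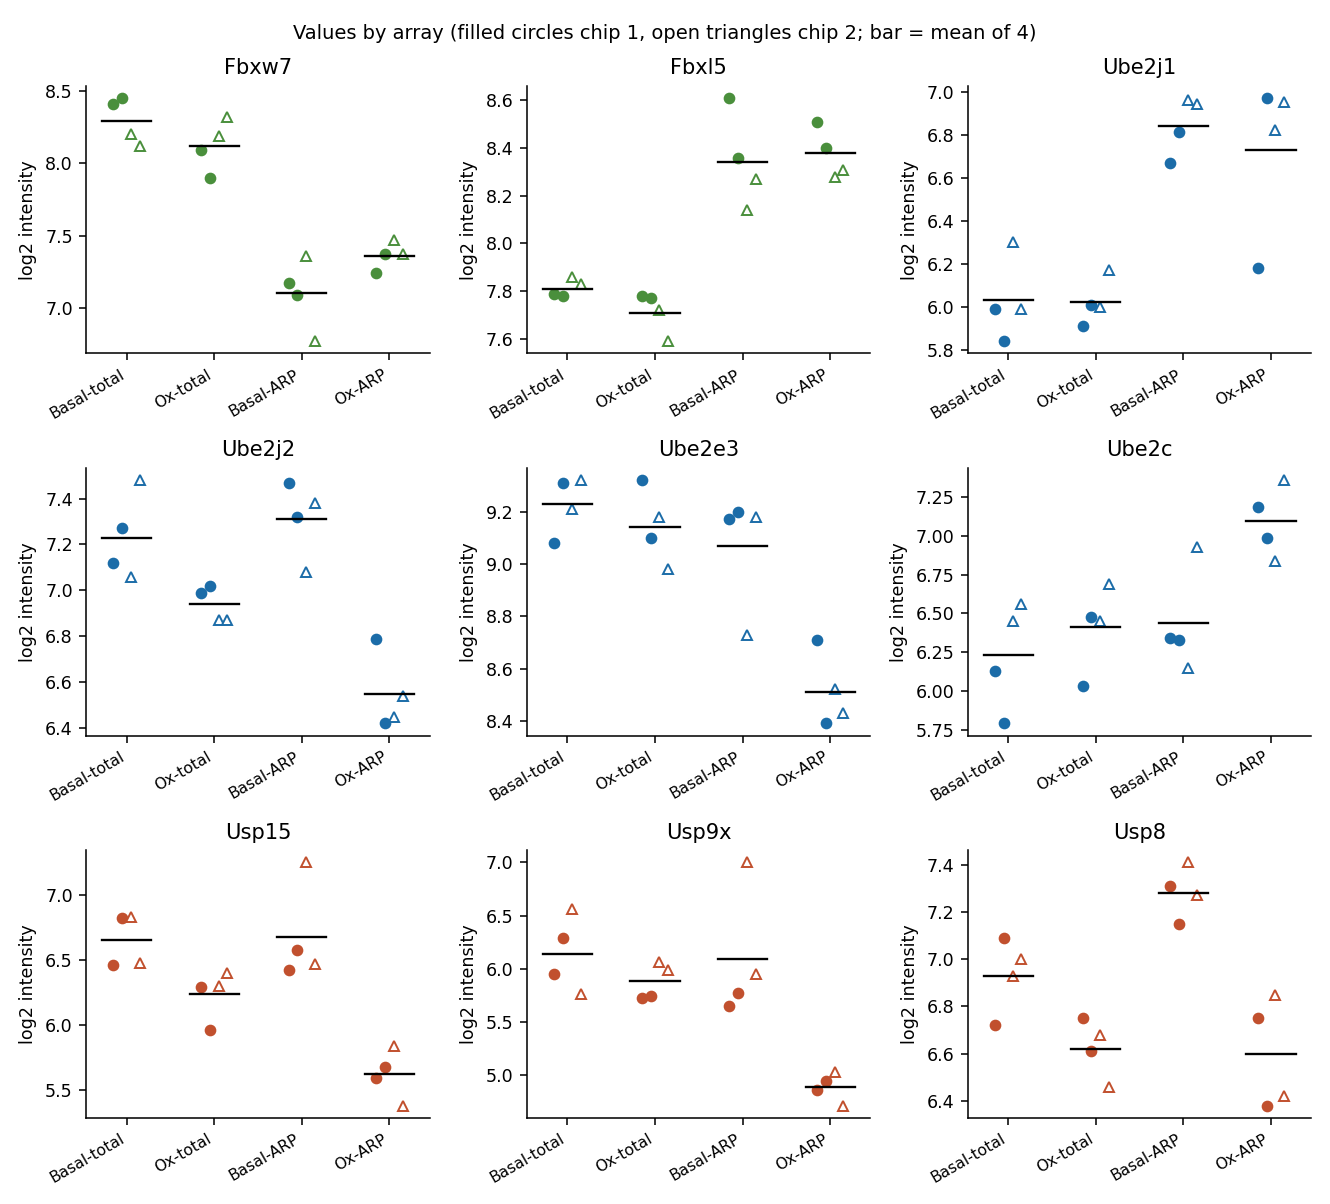
Log2 intensity (y axis) of 9 member probes on each of the 16 arrays by group, with the mean of 4 as a bar. Fbxw7 is lower and Fbxl5 and Ube2j1 are higher in both captured groups, while Ube2j2, Ube2e3, Usp15 and Usp9x are lowest in Ox-ARP.

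Among the deubiquitinases, Usp9x and Usp15 were dim probes that were lower in Ox-ARP than in both Basal-ARP and Ox-total. Usp9x, a large protease that stabilises signalling and neuronal proteins, read 5.95, 6.29, 6.56 and 5.76 in Basal-total and 5.72, 5.74, 6.06 and 5.99 in Ox-total. It read 5.65, 5.77, 7 and 5.95 in Basal-ARP and 4.86, 4.94, 5.03 and 4.71 in Ox-ARP, where it was not detected on any array. Its level there was at least 1.48-fold lower than in Basal-ARP and at least 1.28-fold lower than in Ox-total. These folds are lower bounds: they set the other group's mean against the mean over the Ox-ARP arrays of the lowest signal detected on each, or the probe's own where that was higher. Usp9x passed the detection rule only through the other groups, so its values are given as a description, with no test.

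Usp15, which deubiquitinates receptors and SMADs of the TGF-beta pathway, read 6.46, 6.82, 6.83 and 6.48 in Basal-total, 6.29, 5.96, 6.3 and 6.4 in Ox-total, 6.42, 6.58, 7.25 and 6.47 in Basal-ARP, and 5.59, 5.68, 5.84 and 5.38 in Ox-ARP. The Ox-ARP arrays were below all others, and 3 of the 4 detected the probe. It fell by 1.06 ± 0.17 against Basal-ARP (adjusted p 0.00023; -0.86 and -1.25 on the 2 chips) and by 0.61 ± 0.17 against Ox-total (adjusted p 0.011, 0.061 under median scaling). In the unselected RNA it was already -0.41 ± 0.17 with peroxide, which did not pass (adjusted p 0.42), although the groups did not overlap.

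Usp38 had 2 passing probes. ILMN_3072839 entered through the untreated groups: it was detected on all Basal-total and Basal-ARP arrays, on 1 Ox-total array and on no Ox-ARP array. It read 5.6, 5.66, 5.89 and 5.51 in Basal-ARP and 5.09, 4.99, 4.86 and 4.66 in Ox-ARP, at least 1.1-fold lower. Against Ox-total no fold can be bounded. The groups where this probe was higher selected it, so its values are given as a description, with no test. The other probe, ILMN_3151631, gave 0.18 in Ox-ARP against Basal-ARP and -0.04 against Ox-total, neither called. Usp48 was detected on all 4 Basal-ARP arrays (5.86, 5.72, 5.97 and 5.51) and on no array of the other groups, so it is a member through that group alone. Its higher level there is what selected it and is given as a description, with no test. Its call in Ox-ARP against Ox-total compares groups that both lacked detection. Usp48, and likewise Usp38, Usp9x, Usp15 and Fbxo36 where called, are nevertheless included in the counts of calls in the 3 comparisons.

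Usp8, which sorts endocytosed receptors, had 2 member probes with the same course. ILMN_2420200 read 6.72, 7.09, 6.93 and 7 in Basal-total, 6.75, 6.61, 6.68 and 6.46 in Ox-total, 7.31, 7.15, 7.41 and 7.27 in Basal-ARP, and 6.75, 6.38, 6.85 and 6.42 in Ox-ARP. The Basal-ARP arrays were above all others. It fell by 0.68 ± 0.12 in Ox-ARP against Basal-ARP (adjusted p 0.00044), and ILMN_1214515, named after its value was seen, by 0.64 ± 0.18 (adjusted p 0.013). On capture from untreated cells they gave 0.35 ± 0.12 (adjusted p 0.029, kept in 4 of 8 fits that left out 1 array, with up to 0.1 in the others, and 0.066 under median scaling) and 0.3 ± 0.18 (adjusted p 0.21).

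Usp1, which acts on the Fanconi anaemia protein FANCD2 and on PCNA, showed opposite signs between its probes. ILMN_2425351 read 7.64, 7.24, 7.76 and 8 in Ox-total and 6.16, 6.72, 6.79 and 6.61 in Ox-ARP, a fall of 1.09 ± 0.25 (adjusted p 0.0037), and ILMN_1240950 fell by 1 ± 0.26 (adjusted p 0.0085). The Ox-ARP arrays lay below the Ox-total arrays for both. The brighter probe ILMN_2781170 gave 0.45 ± 0.2 in the same comparison (adjusted p 0.1). On capture from untreated cells it rose by 0.6 ± 0.2 (adjusted p 0.028, kept in 3 of 8 fits that left out 1 array, with up to 0.089 in the others, and 0.15 under median scaling), while the other 2 gave -0.65 ± 0.25 and -0.63 ± 0.26 (adjusted p 0.055 and 0.071). The replicates of these probes were widely spread: ILMN_1240950 ran from 7.14 to 8.5 within Basal-total.

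Some deubiquitinases rose on capture in both states. Usp16, a histone H2A deubiquitinase, read 9.29, 9.33, 9.17 and 9.26 in Basal-total and 9.47, 9.7, 9.8 and 9.71 in Basal-ARP. It read 9.4, 9.29, 9.33 and 9.14 in Ox-total and 9.5, 9.63, 9.68 and 9.56 in Ox-ARP. Neither pair of groups overlapped, and the differences were 0.41 ± 0.09 (adjusted p 0.0023) and 0.3 ± 0.09 (adjusted p 0.017, and 0.057 at 0.26 without Ox-total replicate 4). Usp47, a base excision repair regulator, gave 0.37 ± 0.1 in both (adjusted p 0.013 in each), with adjusted p of 0.19 and 0.11 under median scaling. Usp3, another histone H2A deubiquitinase, rose by 0.4 ± 0.09 from untreated cells (adjusted p 0.0038) and gave 0.07 ± 0.09 from treated cells. Usp22, the deubiquitinase of the SAGA complex, rose by 0.39 ± 0.1 (adjusted p 0.0084) and gave 0.26 ± 0.1 (adjusted p 0.066).

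Of the Usp probes, 3 were higher in Ox-ARP than in Basal-ARP. Usp4, a paralogue of Usp15 called at 1 of 2 probes, read 7.67, 7.47, 7.25 and 7.56 in Basal-ARP and 7.81, 8.14, 7.82 and 7.96 in Ox-ARP, a rise of 0.45 ± 0.13 (adjusted p 0.017), lost without Basal-ARP replicate 3 (0.37, adjusted p 0.058) or without Ox-ARP replicate 2 (0.38, adjusted p 0.061). It rose by 0.5 ± 0.13 against Ox-total (adjusted p 0.01). Usp5, which recycles unanchored chains, rose by 0.5 ± 0.16 against Basal-ARP (adjusted p 0.023, but 0.079 and 0.067 without Basal-ARP replicate 3 or 4, and 0.075 without Ox-ARP replicate 1), and Usp30, a mitochondrial outer-membrane deubiquitinase, by 0.3 ± 0.1 (adjusted p 0.036, kept in 2 of 8 fits that left out 1 array, with up to 0.12 in the others). Usp7, which stabilises MDM2 and p53, and Usp14, a deubiquitinase of the proteasome, passed in no comparison: Usp7 ran from -0.06 to 0 over the 5, with standard errors of 0.12 to 0.16, and Usp14 from -0.12 to 0.31 with standard errors of 0.24 to 0.34. Usp28, a relative of Usp25 known for stabilising MYC, gave 0.28 ± 0.11 (adjusted p 0.061) on capture from untreated cells.

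The lowest member difference on capture from untreated cells was that of an F-box gene. Fbxw7, the receptor that sends cyclin E, MYC and NOTCH for degradation, read 8.41, 8.45, 8.2 and 8.12 in Basal-total and 7.17, 7.09, 7.36 and 6.77 in Basal-ARP. With peroxide it read 8.09, 7.9, 8.19 and 8.32 before capture and 7.24, 7.37, 7.47 and 7.37 after it. The captured and unselected arrays did not overlap in either state. Fbxw7 fell by 1.19 ± 0.12 on capture from untreated cells (limma adjusted p 2.6e-06; -1.3 and -1.09 on the 2 chips) and by 0.76 ± 0.12 from treated cells (adjusted p 0.00026; -0.69 and -0.83). The difference between the captured groups was 0.27 ± 0.12 (adjusted p 0.12), and the direct test gave 0.44 ± 0.17 (adjusted p 0.18). The gene has 2 further probes on the arrays, and neither passed the detection rule.

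Fbxl5, the iron-sensing receptor that targets the iron regulatory protein IRP2, read 7.79, 7.78, 7.86 and 7.83 in Basal-total and 7.78, 7.77, 7.72 and 7.59 in Ox-total. It read 8.61, 8.36, 8.14 and 8.27 in Basal-ARP and 8.51, 8.4, 8.28 and 8.31 in Ox-ARP. Again the captured arrays stood apart from the unselected ones in both states, here above them. Fbxl5 rose by 0.53 ± 0.1 (adjusted p 0.00058; 0.7 and 0.36 on the 2 chips) and by 0.66 ± 0.1 (adjusted p 9.5e-05; 0.68 and 0.64), and the captured groups differed by 0.03 ± 0.1. It was the 1 F-box probe called higher on capture from treated cells. The gene has 4 probes on the arrays, of which 1 passed the detection rule.

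A group of 5 F-box probes rose on capture from untreated cells, were not called from treated cells and were lower in Ox-ARP than in Basal-ARP: Fbxo8, Fbxo28, Fbxo3, Fbxw17 and Fbxw5. They were 10.9% of the F-box probes, where 4.89% of all probes tested showed this pattern. It too was picked out after all combinations had been counted, and its comparisons with calls share the Basal-ARP arrays. Fbxo8 read 7.37, 7.45, 7.43 and 7.83 in Basal-total, 7.38, 7.49, 7.41 and 7.3 in Ox-total, 7.83, 7.83, 7.84 and 7.94 in Basal-ARP, and 7.34, 7.07, 7.42 and 7.14 in Ox-ARP. The Basal-ARP arrays were the highest, level with 1 Basal-total array. It fell by 0.62 ± 0.11 between the captured groups (adjusted p 0.00049; -0.63 and -0.61 on the 2 chips), and its rise on capture was 0.34 ± 0.11 (adjusted p 0.022, kept in 4 of 8 fits that left out 1 array, with up to 0.074 in the others). Fbxw17 gave 0.45 ± 0.11, 0.06 ± 0.11 and -0.38 ± 0.11 in the untreated, treated and captured comparisons, and Fbxo28 gave 0.34 ± 0.08, 0.04 ± 0.08 and -0.31 ± 0.08. The last value of both lost its call under median scaling (adjusted p 0.063 for Fbxw17 and 0.31 for Fbxo28), and so did the first of Fbxo28 (0.063). Fbxw5, named after its values were seen, was at the threshold, with an adjusted p of 0.041 on capture and 0.05 between the captured groups. Fbxo3, at 1 of 2 probes, gave 0.3 ± 0.11 and -0.35 ± 0.11 (adjusted p 0.043 and 0.022). The calls of Fbxw5 were kept in 2 and 2 of 8 fits that left out 1 array, and those of Fbxo3 in 2 and 5. Under median scaling none of these 4 was kept (adjusted p 0.2 and 0.48 for Fbxw5, 0.25 and 0.4 for Fbxo3).

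Other F-box probes were called in 1 or 2 comparisons. Fbxl18 had a probe lower on capture from untreated cells (ILMN_2643951, -0.32 ± 0.09, adjusted p 0.015, and 0.05 without Basal-total replicate 1 or 0.065 under median scaling) and another lower from treated cells (ILMN_2952730, -0.37 ± 0.11, adjusted p 0.018, kept in 5 of 8 fits that left out 1 array, and 0.073 under median scaling). Probe ILMN_2643951 was also higher in Ox-ARP against Basal-ARP, by 0.26 ± 0.09 (adjusted p 0.041). That call was kept in 1 of 8 such fits, with adjusted p up to 0.13 in the others. It was lost under median scaling (0.077) and with the authors' processed values (0.12). Fbxo16 was lower in both, at -0.31 ± 0.11 and -0.35 ± 0.11, and these calls were kept in 2 and 3 of 8 fits that left out 1 array, with adjusted p up to 0.13 and 0.076. Fbxo36 read 6.28, 6.21, 5.75 and 5.45 in Ox-total and 5.52, 5.13, 5.66 and 5.21 in Ox-ARP, where 1 of 4 arrays detected it, so its level there is mostly a bound. The groups overlapped, with measured differences of -0.92 on chip 1 and -0.17 on chip 2. Fbxo36 did not meet the detection rule in Ox-ARP, so these values are given as a description, with no test. From untreated cells Fbxo42, at 1 of 3 probes, fell by 0.26 ± 0.09 (adjusted p 0.043, and 0.17 under median scaling). The Fbxo42 call was kept in 3 of 8 such fits, with adjusted p up to 0.13. Fbxl15, whose product targets the ligase Smurf1, rose by 0.37 ± 0.09 in Ox-ARP against Basal-ARP (adjusted p 0.0072), and Fbxo33 fell by 0.43 ± 0.11 (adjusted p 0.0088, and 0.1 at -0.31 under median scaling). Fbxo31, a DNA damage responsive receptor, rose by 0.47 ± 0.16 at ILMN_1252057 (adjusted p 0.036, kept in 4 of 8 such fits, with up to 0.13 in the others), where its other probe gave -0.13 ± 0.11. Fbxo7, the Parkinson's disease gene product that binds the proteasome regulator PI31, gave 0.28 ± 0.19 and 0.44 ± 0.19 on capture (adjusted p 0.27 and 0.089), and Fbxo9 gave 0.23 ± 0.09 and 0.11 ± 0.09 (adjusted p 0.061 and 0.42).

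The 2 capture comparisons share no arrays. Across the 123 members their differences had a Pearson correlation of 0.63 and a Spearman correlation of 0.57, beside 0.66 and 0.59 over all probes tested. The points share chips, depth of signal and probes of the same gene, so this is a description. The sign was the same for 86 members (69.9%, against 70.8% of all probes). Of the calls, 10 members were called the same way in both, which is 35.7% of the untreated calls and 33.3% of the treated ones, where all probes gave 46% and 54.3%, and 14.7% of all probes were so called. Without Usp48, which was detected on 0 of the 8 arrays of the treated comparison, 9 members remained, 33.3% of 27 and 31% of 29 calls. The 7 of them higher in both were Fbxl5, Ube2b, Ube2j1, Ube2n, Ube2z (ILMN_2774701), Usp16 and Usp47, and the 2 lower in both were Fbxw7 and Fbxo16. In 69 members (56.1%, against 45.8% of all probes) none of the 3 comparisons that involve captured RNA gave a call.

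**Figure D4:**
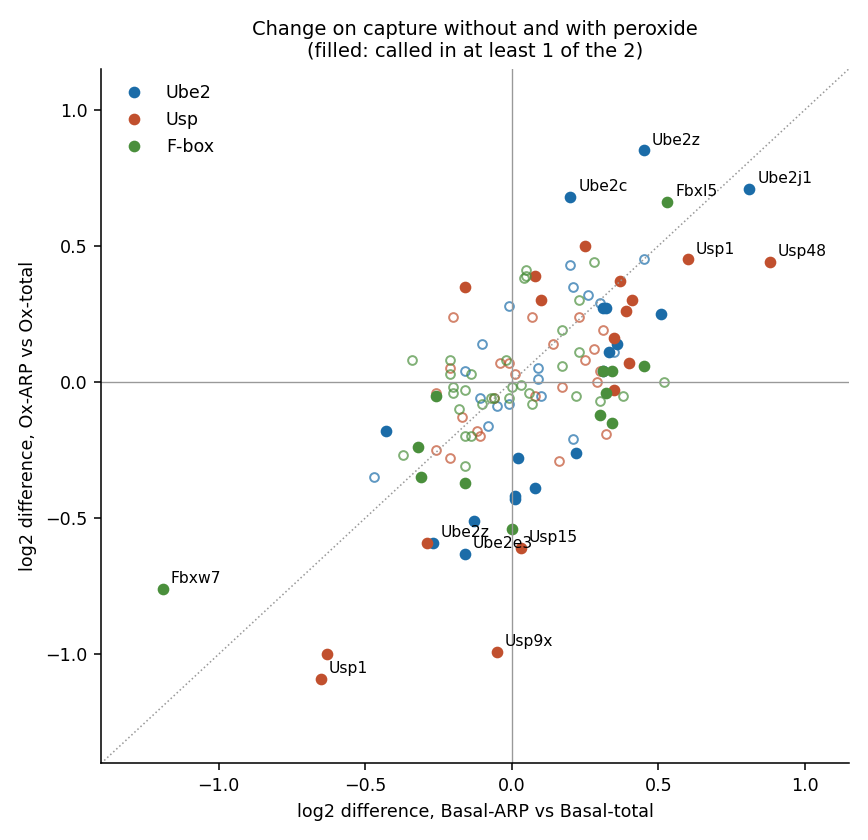
Log2 difference on capture from untreated cells (x axis) and from peroxide-treated cells (y axis) for the 123 member probes, coloured by class and filled where called in either. Fbxw7 is far down in both, Fbxl5 and Ube2j1 are up in both, and the Ube2z and Usp1 probes fall on opposite sides of 0.

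For 25 genes at least 2 probes passed. Their probes all had the same sign in 14 genes on capture from untreated cells, in 14 on capture from treated cells and in 11 in Ox-ARP against Basal-ARP. At least 1 probe was called in 11, 9 and 14 of these genes, but all probes of the gene were called in the same direction in 0, 1 and 2 of them. A call in this set is thus a call for a probe. The 2 genes with all probes lower in Ox-ARP against Basal-ARP were Ube2e3 and Usp8, and Ube2e3 was also the 1 gene of that kind on capture from treated cells.

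**Figure D5:**
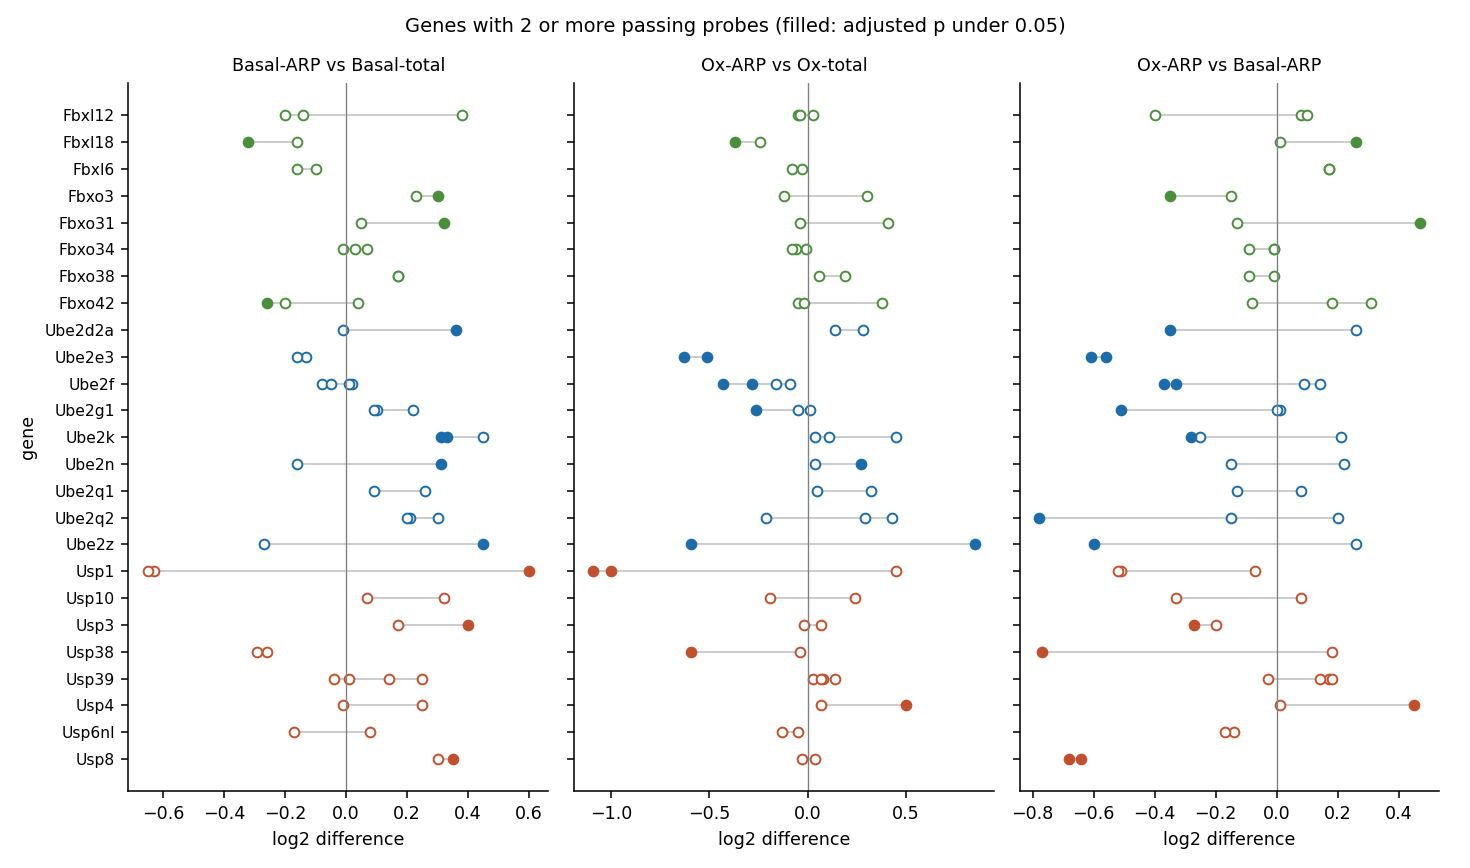
Log2 differences (x axis) of every passing probe of the 25 genes with at least 2 (rows), joined by a line and filled where the adjusted p was under 0.05. Ube2z and Usp1 straddle 0 on capture from treated cells, and both probes of Ube2e3 lie together below it.

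Members came from genes with a median genomic span of 35.4 kb (RefSeq), against 22.3 kb for all probes with a known span. In the Ox-ARP against Basal-ARP comparison the Spearman correlation between span and difference was -0.25 over the 123 members, beside -0.23 over 10183 probes tested. The 31 members of the longest genes, 59.4 to 321 kb, gave 0 higher and 9 lower (29%), with a median of -0.17. All 1920 probes in that range of span gave 6.98% higher and 22.5% lower, with a median of -0.1. The 31 members of the shortest, 2.26 to 17.9 kb, gave 3 higher (9.68%) and 4 lower (12.9%), with a median of 0.06, where 4081 probes of that range gave 19.3% and 10.9%, with a median of 0.09. In unselected RNA, Ox-total against Basal-total, the correlation was -0.28 over the members and -0.28 over all probes. On capture from untreated cells it was 0.1 and 0.23, and on capture from treated cells -0.04 and 0.15. The part of gene span in the members' differences was not tested.

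Other genes of the ubiquitin system were followed through 7 lists chosen with earlier results of these data known, which had 119 passing probes of 78 genes. Of these, 23 were higher and 11 lower on capture from untreated cells, 19 and 9 from treated cells, and 12 and 23 in Ox-ARP against Basal-ARP. As shares of the 119 these were 19.3% and 9.24%, 16% and 7.56%, and 10.1% and 19.3%. Over all probes the shares higher and lower were 16.7% and 15.2%, 13.6% and 13.4%, and 13.8% and 15.4%, and the counts of the single lists below, each of few probes, are to be read against them. The 7 E1 probes gave no call in any comparison. The core SCF subunits, cullins and exchange factors (19 probes) gave 5 higher and 0 lower, then 4 and 1, then 0 and 6. Cul1, the scaffold of the SCF ligases that F-box proteins join, rose by 0.43 ± 0.11 (adjusted p 0.0083) and by 0.47 ± 0.11 (adjusted p 0.0056) on capture in the 2 states.

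The COP9 signalosome removes NEDD8 from cullins. Its 14 probes gave 0 higher and 5 lower on capture from untreated cells, 2 and 1 from treated cells, and 6 higher and 0 lower in Ox-ARP against Basal-ARP. Both probes of Cops5, its catalytic subunit, fell on capture from untreated cells, by 0.49 ± 0.08 (adjusted p 0.00021) and 0.59 ± 0.09 (adjusted p 0.00018). Skp2, an F-box protein outside the naming rule that targets p27, fell by 0.86 ± 0.14 and 0.63 ± 0.16 at 2 of its 3 probes in Ox-ARP against Basal-ARP (adjusted p 0.00042 and 0.0074). The 6 probes of F-box proteins under other names gave 0 and 0, 0 and 2, and 0 and 2. The HECT ligases (24 probes) gave 5 higher and 1 lower, 4 and 1, and 1 and 5, the anaphase-promoting complex (20 probes) 6 and 1, 4 and 2, and 1 and 3, and the other deubiquitinase families (29 probes) 7 and 4, 5 and 2, and 4 and 7.

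Outside the members, a few probes of these lists passed where no member did. Lrrc29, an F-box protein with leucine-rich repeats, rose by 0.96 ± 0.14 with peroxide in unselected RNA (adjusted p 0.0039). The direct test of capture against peroxide called Bap1, a nuclear deubiquitinase and tumour suppressor, at 0.49 ± 0.12 (adjusted p 0.038), 1 of 4 Cdc20 probes at -0.89 ± 0.2 (adjusted p 0.028) and 1 of 3 Atxn3 probes at -0.51 ± 0.12 (adjusted p 0.032). Atxn3, a deubiquitinase of the Josephin family, had 2 probes that rose on capture from untreated cells, by 1.29 ± 0.09 and 1.37 ± 0.13, and another that fell by 0.49 ± 0.1.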

How the data were processed

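RNA was hybridised to Illumina bead arrays, per the labels' protocols, after TotalPrep cRNA synthesis and Cy3-streptavidin staining. The submitters' processing notes list GenomeStudio 2010.2. The deposited tables hold, per the file headers, a mean bead intensity and a detection p-value for each probe and array, not normalized between arrays. A deposited series table holds the authors' processed intensity: each column is a linear function of the scanner signal with a mean of 376, and 28.2% of its values are below 0. It was used as an alternative.

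From the bead intensity, background was corrected by normexp with control values inferred from the detection p-values and an offset of 16, followed by quantile normalization and log2 (limma 3.58.1, R 4.3.3). Probes were kept if their detection p was under 0.01 on every array in 1 or more groups (10794 of 25697). Of all probes, 23978 had 1 platform symbol and 1719 none. All 16 arrays entered 1 fit with a mean per group, 12 residual and 5.4 prior degrees of freedom, and Benjamini-Hochberg adjustment over all kept probes for each of 5 comparisons. The fit was tested on simulated data. The number of arrays limits the precision. The members and all gene lists were chosen with earlier results of these data known.

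Named probes were the up to 4 most raised and up to 4 most lowered called probes of each class and comparison with 1 sign across the 4 comparisons of same-numbered arrays, any member called in Ox-total against Basal-total or in the direct test (there was none), genes with probes called both ways, members next to the detection threshold, members detected on 4 arrays of 1 group and 0 of the other, and a fixed list of well-known genes. Of that list, Ube2d1, Ube2v2, Ube2r2, Fbxw11, Fbxo5 and Fbxo22 had no passing probe. Some genes of the lists are not reported here. Probes named outside this rule are marked. Alternatives were other background corrections, normalizations and filters, the brightest probe per gene, chip or replicate number as a block, single chips, array weights, only the groups compared, and leaving out each array.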

Additional observations from a re-analysis of the deposited data

Results flagged for a closer look

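For 63 member probes and 3 class medians, each group of 4 arrays was searched for 1 array that stood apart from the others by Dixon's criterion at 95%. It was met in 13 of 264 groups (4.92%), where chance gives about 1 in 20, and the gap below is that array's distance to the nearest other as a share of the group's whole range. For Ube2f (ILMN_2590349) Ox-total replicate 1 was high at 7.52, with the others from 7.45 to 7.46 and a gap of 0.845 of the range. For Ube2t (ILMN_2704919) Basal-ARP replicate 4 was high at 7.85, with the others from 7.54 to 7.59 and a gap of 0.835 of the range. For Fbxo8 (ILMN_2621113) Basal-ARP replicate 4 was high at 7.94, with the others from 7.83 to 7.84 and a gap of 0.881 of the range. For Ube2k (ILMN_2640742) Basal-ARP replicate 3 was high at 11.6, with the others from 11.34 to 11.36 and a gap of 0.926 of the range. For Ube2k (ILMN_2640742) Ox-ARP replicate 3 was high at 11.41, with the others from 11.03 to 11.04 and a gap of 0.951 of the range. For Ube2n (ILMN_1227863) Basal-ARP replicate 1 was high at 9.56, with the others from 9.47 to 9.48 and a gap of 0.865 of the range. For Usp12 (ILMN_1236369) Ox-total replicate 2 was high at 7.44, with the others from 7.04 to 7.1 and a gap of 0.864 of the range. For Usp28 (ILMN_2828768) Basal-ARP replicate 3 was high at 7.92, with the others from 7.63 to 7.67 and a gap of 0.843 of the range. The remaining arrays were low. Basal-total replicate 3 read 7.61 for Ube2z (ILMN_1225931) against 7.69 to 7.71, a gap of 0.839. Basal-ARP replicate 3 read 8.73 for Ube2e3 (ILMN_2512043) against 9.17 to 9.2, a gap of 0.939. Ox-ARP replicate 4 read 8.63 for Ube2g1 (ILMN_2482026) against 8.87 to 8.91, a gap of 0.84. Ox-ARP replicate 3 read 10.65 for Usp22 (ILMN_2990220) against 10.86 to 10.9, a gap of 0.832. Basal-total replicate 3 read 6.67 for Usp30 (ILMN_3161250) against 6.93 to 6.95, a gap of 0.906.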

How the results depend on the processing

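No call reversed its direction under any alternative. Of the 91 calls in 3 comparisons, 89 were kept without background correction, 88 with an offset of 50, 88 under cyclic loess, 81 with the authors' processed values, 77 without the detection filter, 73 when only the groups compared were fitted, 57 under median scaling, 12 with no normalization between arrays, 87 with array weights and 91 with the chip as a block. The members called in Basal-ARP against Basal-total (28 as reported) numbered 13 under median scaling, 2 without normalization, 11 and 8 within chip 1 and chip 2, and 21 to 29 with 1 array left out. Ox-ARP against Ox-total (30) gave 4 without normalization, 16 and 6 within the chips and 24 to 28 with 1 array left out, and Ox-ARP against Basal-ARP (33) gave 8, 12 and 11, and 25 to 30. Without normalization 9.6%, 6.62% and 12.2% of all probes were called in these 3 comparisons, and their shares within the chips are given above. The main fit did not pair the arrays by replicate number. Same-numbered arrays correlated in their deviations from 0.21 to 0.7 for replicate 1 and from -0.11 to 0.45 for replicate 2. The range was 0.25 to 0.64 for replicate 3 and -0.26 to 0.5 for replicate 4. Of the 16 arrays, 9 were closest to their own number, so pairing by number is not excluded. With a replicate block, 47 members were called in Basal-ARP against Basal-total (35 higher, 12 lower) and 7 in the direct test (2 and 5), where the fit without it called 0. Over all probes that block called 42.3% and 9.63%, against 31.9% and 2.48% without it. The direct test also called 1 member without background correction, 1 with the authors' values, 4 with the chip as a block, 9 with array weights and 0 to 1 with 1 array left out. Its shares of all probes were 2.87% without background correction, 3.43% with the authors' values, 7.65% with the chip block and 7.5% with array weights. Median differences are given as Ube2, Usp and F-box. In Ox-total against Basal-total the authors' values gave -0.1 (Usp) and -0.06 (F-box). In Basal-ARP against Basal-total no normalization gave -0.01, -0.03 and -0.11, the authors' values 0.16, 0.14 and 0.05, chip 2 alone 0.14 (Usp) and chip 1 alone 0.06 (F-box). Leaving out 1 array gave 0.07 to 0.17, 0.08 to 0.13 and -0.05 to 0.04. In Ox-ARP against Ox-total the authors' values gave 0.12, 0.12 and 0.07, chip 2 alone -0.08 (Ube2) and -0.07 (F-box), median scaling 0.04 and no normalization 0 (both F-box), and leaving out 1 array -0.04 to 0.08 (Ube2). In Ox-ARP against Basal-ARP median scaling gave 0.03, 0.02 and 0.12, no normalization 0.08, 0.08 and 0.17 with 0.18 for all probes, and leaving out 1 array -0.02 to 0.03 (F-box). In the direct test median scaling gave 0.01 (Ube2) and 0.08 (F-box), no normalization 0.07, 0.04 and 0.13, the authors' values 0.05 (F-box), and leaving out 1 array -0.18 to -0.04 (Ube2) and -0.05 to 0.01 (F-box). The cause of these shifts was not tested. The fits within 1 chip have fewer arrays. Dim probes are limited by their signal over background.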
